A study of Mus musculus with 10 samples.

Results

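Elastic fibres give arteries, valves and the connective tissue of the heart their recoil. Cells secrete tropoelastin, which is laid onto a scaffold of fibrillin microfibrils with the help of fibulins and microfibril-associated proteins and is then joined into an insoluble polymer by copper-dependent lysyl oxidases. Microfibrils also exist without elastin and hold latent growth factors of the TGF-beta family. Described here are 10 genes of this system: Eln, Fbn1, Fbln1, Fbln2, Fbln5, Mfap5, Mfap4, Ltbp2, Lox and Loxl1. They were taken by symbol from a table of 23303 gene entries, in which each of the 10 had an entry of its own.

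The tissue was the left ventricle of male mice of strain 129X1/SvJ. There were 5 samples labelled CKD (chronic kidney disease) under surgery and 5 labelled Sham, with 1 RNA sequencing library each. Each sample was taken as 1 mouse, which the labels do not state outright. The series addresses the heart disease of kidney failure, and its design implies the comparison of CKD with Sham. How kidney disease was produced, how long it lasted and the age of the mice are not stated in the labels. The mice are numbered 1 to 5 within a group only to name them.

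Levels are in FPKM, fragments scaled to transcript length and library size, so that levels of different genes are compared per length. Read numbers are unknown for each value. The relative depths of 8 libraries, read from the steps between low values, lay between 0.901 and 1.14 times that of Sham 2. For CKD 1 and Sham 1, read at 1.09 and 0.853, few low genes shared these steps, so these 2 depths are uncertain. CKD 1 and Sham 1 stood apart: their 10 most abundant genes took 14.8% and 15.3% of the summed FPKM, against 17.6% to 18.2% in the other 8 libraries. Low values of these 2 libraries also stepped differently: 6.12% to 10.4% of low genes shared the commonest ratio when 1 of them was set against any of the other 8, against 41.3% to 57.1% for pairs of the other 8 and 39.6% for CKD 1 with Sham 1. Results for the 10 genes and the other listed genes of this system are therefore given with and without both where the call differs. For cell type markers and any other genes, calls are given with all libraries only. The ventricular list (Myl2, Myl3, Tnnt2, Tnni3, Actc1, Mybpc3, Ryr2 and Pln) summed to between 53506 and 67983 FPKM, though atrial muscle also expresses several of these genes. The ventricular label fitted the level of Myl2, at least 16935 FPKM in every library, and the low atrial list. The 5 atrial markers summed to between 6.13 and 11.9 FPKM, with Bmp10 listed at 0 in all 10 libraries. Of the 3 atrial markers tested between the groups, 1 was called higher in CKD. It was Dkk3, at 1.75 ± 0.227 FPKM in CKD and 0.752 ± 0.231 in Sham (adjusted p = 0.00489 by limma). Genes were tested if their mean over all libraries was at least 1 FPKM. Dkk3 met this only through its CKD level, so its call is not independent of the filter.

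CKD ventricles held more transcript of 5 of the 10 members, and none was lower. Mfap5, Mfap4, Ltbp2, Fbln2 and Lox rose by limma at an adjusted p under 0.05, where 3.17% of the 11651 genes tested were called higher and 2.12% lower. The same 5 genes were those whose CKD mice all lay above all Sham mice, a pattern shown by 4.1% of tested genes. Eln and Fbn1, the proteins that form the core and the scaffold, had changes of similar size to Fbln2 but did not pass, and Fbln1 and Fbln5 differed little. The median change of the members was 0.64 on the log2(FPKM + 0.5) scale, against -0.0035 over all genes tested, and 9 of the 10 members had a positive change. Folds are given on this scale, as ratios of geometric means of FPKM + 0.5. For genes with low levels a rise is therefore smaller as a fold than as a ratio of the mean FPKM printed beside it. All 10 passed the filter, a mean of at least 1 FPKM over all libraries, but Ltbp2 did so only through its CKD level, so its place among the 5 calls is not independent of the filter. In bulk tissue, more cells of a type and more RNA per cell cannot be told apart.

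**Figure D1:**
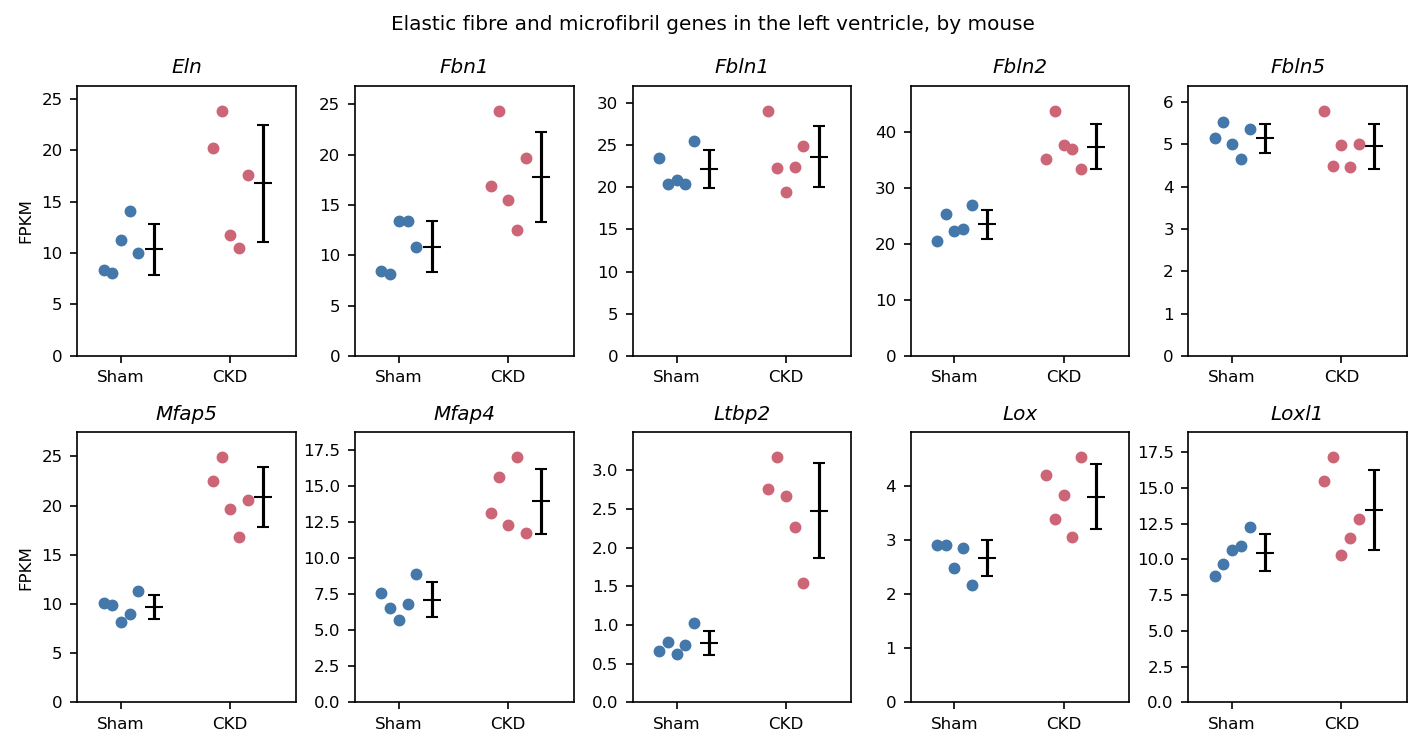
FPKM (vertical axis, starting at 0) of the 10 genes in each mouse (points: 5 Sham in blue, 5 CKD in red), with the group mean and SD as a black bar. For Mfap5, Mfap4, Ltbp2, Fbln2 and Lox the 5 CKD points all lie above the 5 Sham points, while for Eln, Fbn1, Fbln1, Fbln5 and Loxl1 the groups overlap.

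In Sham ventricles the fibulins Fbln2 (23.5 ± 2.57 FPKM, SD, n = 5) and Fbln1 (22.1 ± 2.26) were the most abundant of the 10, and their ranges overlapped. A middle tier followed, Fbn1 (10.8 ± 2.55), Loxl1 (10.5 ± 1.28), Eln (10.4 ± 2.47), Mfap5 (9.69 ± 1.19) and Mfap4 (7.11 ± 1.19 FPKM), in which each gene overlapped its neighbour. Below it came Fbln5 (5.14 ± 0.337), Lox (2.66 ± 0.332) and Ltbp2 (0.768 ± 0.159 FPKM), each separated from the gene above it. In CKD ventricles the order of these 3 was kept, but Lox overlapped both Fbln5 and Ltbp2. Fbln2 stood alone at the top at 37.3 ± 3.97 FPKM, and Mfap5 moved from the sixth to the third place at 20.9 ± 3.03. The 10 genes summed to 137 to 183 FPKM in the CKD mice and to 95.9 to 114 FPKM in the Sham mice.

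Elastin itself is encoded by Eln, on chromosome 5 from 134702595 to 134747368 in GRCm38. It was at 20.2, 23.9, 11.7, 10.5 and 17.5 FPKM in CKD 1 to CKD 5 and at 8.36, 8.08, 11.3, 14.1 and 10.0 in Sham 1 to Sham 5. CKD 1, CKD 2 and CKD 5 were above every Sham mouse, while CKD 3 and CKD 4 lay inside the Sham range. The change was 0.63 (log2, SE 0.22, 95% interval 0.15 to 1.11; adjusted p = 0.128 by limma), a fold of 1.55. Leaving out 1 library moved it between 0.49 and 0.78 with no call, and removal of the 2 libraries that stood apart left 0.48 (SE 0.25, adjusted p = 0.32).

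Fbn1 encodes fibrillin 1, the backbone of microfibrils, and lies on chromosome 2 from 125300594 to 125506485. Its levels were 16.9, 24.4, 15.5, 12.5 and 19.7 FPKM in CKD 1 to CKD 5 and 8.46, 8.15, 13.4, 13.4 and 10.8 in Sham 1 to Sham 5. Only CKD 4 fell within the Sham range. The change of 0.68 (log2, SE 0.18, fold 1.61) just missed the threshold at an adjusted p = 0.0526 by limma. Without CKD 4 it passed, at 0.80 (adjusted p = 0.0254), whereas removal of CKD 1 together with Sham 1 gave 0.61 (adjusted p = 0.139).

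The mice took much the same order for these 2 genes. Among the Sham mice both Eln and Fbn1 were highest in Sham 4, followed by Sham 3, Sham 5, Sham 1 and Sham 2. Among the CKD mice both were highest in CKD 2 and lowest in CKD 4 with CKD 3 next to lowest, and only CKD 1 and CKD 5 changed places. The ratio of Eln to Fbn1 was 0.924 in CKD and 0.959 in Sham as a geometric mean of FPKM + 0.5, a log2 difference of -0.05 (SE 0.12, exact permutation p = 0.659, adjusted over 8 ratios p = 0.659).

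**Figure D2:**
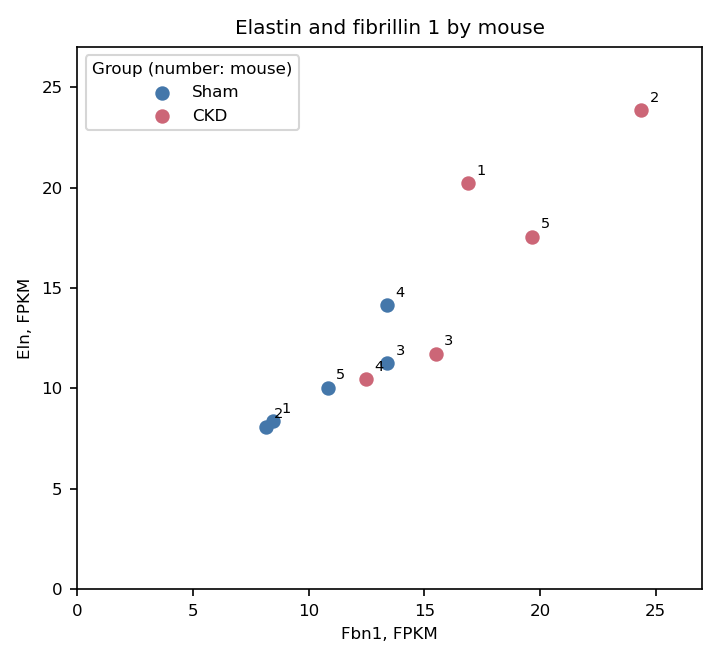
Eln against Fbn1 in FPKM, 1 point per mouse (blue Sham, red CKD, numbers name the mouse). Points run along 1 diagonal from Sham 2 (8.15 and 8.08 FPKM of Fbn1 and Eln) to CKD 2 (24.4 and 23.9), and the 2 groups overlap in the middle.

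The 3 largest changes were in genes for proteins that sit on microfibrils. Mfap5 encodes MAGP-2, which binds fibrillin and integrins, on chromosome 6 from 122513584 to 122529290. It was at 22.4, 24.9, 19.6, 16.9 and 20.6 FPKM in CKD 1 to CKD 5 and at 10.1, 9.95, 8.14, 8.97 and 11.3 in Sham 1 to Sham 5. The lowest CKD mouse was thus well above the highest Sham mouse. Mfap5 rose 2.09-fold (log2 1.07, SE 0.11, adjusted p = 0.0007 by limma) and had the seventh smallest p of all genes tested. With 1 library left out the rise stayed between 1.00 and 1.14.

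Mfap4 encodes a fibrinogen-related glycoprotein that binds elastin, fibrillin and collagen, on chromosome 11 from 61485431 to 61488708. It was at 13.1, 15.6, 12.3, 17.0 and 11.7 FPKM in CKD 1 to CKD 5 and at 7.58, 6.54, 5.72, 6.84 and 8.88 in Sham 1 to Sham 5. Its order among CKD mice differed from that of Eln: CKD 4, the lowest for Eln, was the highest for Mfap4. The gene rose 1.90-fold (log2 0.92, SE 0.12, adjusted p = 0.00199 by limma).

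Ltbp2 had the largest change of the 10. It encodes a member of the latent TGF-beta binding protein family that binds fibrillin but does not carry TGF-beta, and lies on chromosome 12 from 84783212 to 84876558. Levels were 2.76, 3.17, 2.67, 2.26 and 1.54 FPKM in CKD 1 to CKD 5 and 0.669, 0.786, 0.621, 0.735 and 1.03 in Sham 1 to Sham 5. CKD 5 was the lowest CKD mouse and Sham 5 the highest Sham mouse, and the groups still did not overlap. Ltbp2 rose 2.32-fold (log2 1.21, SE 0.16, adjusted p = 0.00171 by limma). With no filter on the mean, so that its CKD level played no part in its being tested, the adjusted p was 0.00394. Sham levels were close to the pseudocount of 0.5, which compresses the fold: the log2 change was 1.55 with a pseudocount of 0.1 and 0.96 with 1.

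Of the 3 fibulins, Fbln2 passed and Fbln1 and Fbln5 did not. Fbln2, which links tropoelastin, fibrillin and basement membrane proteins (chromosome 6, 91212460 to 91272540), was at 35.1, 43.8, 37.7, 36.9 and 33.3 FPKM in CKD 1 to CKD 5. It was at 20.4, 25.2, 22.2, 22.7 and 26.9 in Sham 1 to Sham 5, with no overlap. Fbln2 rose 1.58-fold (log2 0.66, SE 0.09, adjusted p = 0.00189 by limma).

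Fbln1, found in the elastin core and in basement membranes (chromosome 15, 85205949 to 85286294), was at 29.1, 22.3, 19.4, 22.4 and 25.0 FPKM in CKD 1 to CKD 5. In Sham 1 to Sham 5 it was at 23.4, 20.4, 20.9, 20.5 and 25.5. The groups overlapped almost fully, with a change of 0.09 (log2, SE 0.10, adjusted p = 0.712 by limma) whose 95% interval runs from 0.910-fold to 1.24-fold.

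Fbln5, which tethers tropoelastin to microfibrils and which elastic fibre assembly requires (chromosome 12, 101746565 to 101819119), differed little as well. It was at 5.80, 4.50, 4.98, 4.47 and 5.01 FPKM in CKD 1 to CKD 5 and at 5.16, 5.53, 5.01, 4.65 and 5.36 in Sham 1 to Sham 5. Its change was -0.05 (log2, SE 0.08, adjusted p = 0.785 by limma), with a 95% interval of 0.854-fold to 1.09-fold. A rise of the size of Fbln2 lies outside the intervals of both Fbln1 and Fbln5.

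Of the 2 enzymes that join tropoelastin chains, Lox passed and Loxl1 did not. Lox, lysyl oxidase, which acts on collagen and elastin (chromosome 18, 52516060 to 52529867), was at 4.19, 3.38, 3.83, 3.05 and 4.53 FPKM in CKD 1 to CKD 5. It was at 2.91, 2.91, 2.49, 2.85 and 2.16 in Sham 1 to Sham 5. The lowest CKD mouse exceeded the highest Sham mouse by a small margin. Lox rose 1.35-fold (log2 0.44, SE 0.11, adjusted p = 0.0444 by limma), a call near the threshold that was lost without any 1 library other than CKD 4 (highest adjusted p = 0.102, with changes between 0.38 and 0.50). It was also lost without both CKD 1 and Sham 1, at a change of 0.43 (adjusted p = 0.0889).

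Loxl1, a lysyl oxidase-like enzyme known for the upkeep of elastic fibres (chromosome 9, 58287723 to 58313212), was at 15.5, 17.2, 10.3, 11.5 and 12.8 FPKM in CKD 1 to CKD 5. In Sham 1 to Sham 5 it was at 8.86, 9.69, 10.6, 10.9 and 12.2. CKD 1, CKD 2 and CKD 5 were above all Sham mice and CKD 3 and CKD 4 were not, the same division as for Eln. The change of 0.33 (log2, SE 0.13, adjusted p = 0.182 by limma) did not pass.

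**Figure D3:**
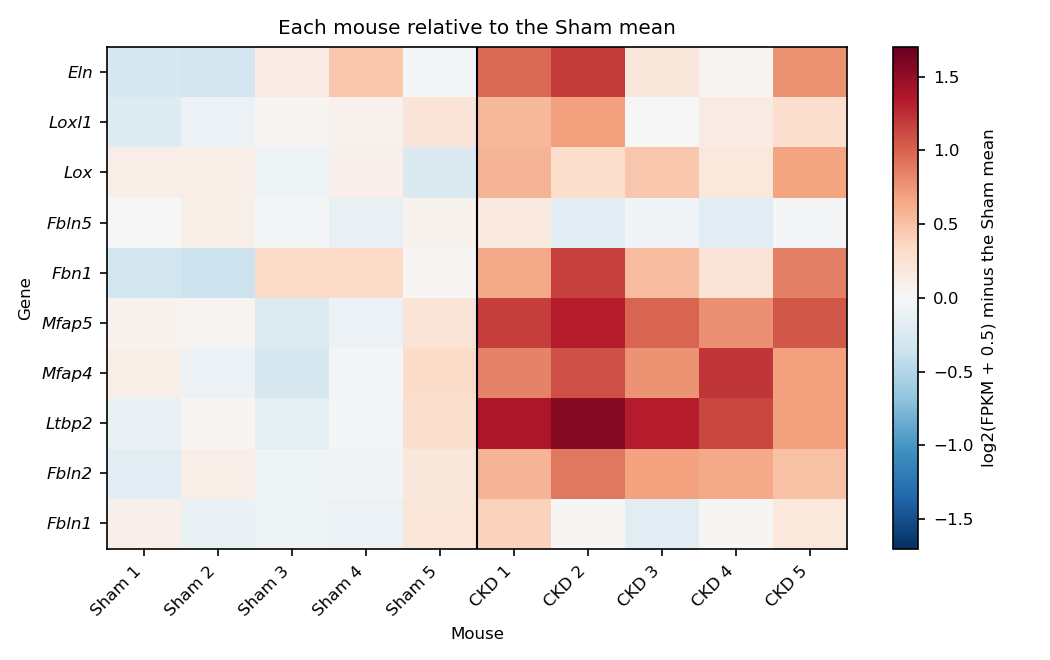
Each cell is the log2(FPKM + 0.5) of a gene (rows) in a mouse (columns, Sham left of the line and CKD right of it) minus the Sham mean of that gene, from blue (lower) to red (higher). Mfap5, Mfap4, Ltbp2 and Fbln2 are raised in all 5 CKD mice, while Eln is raised mainly in CKD 1, CKD 2 and CKD 5 and Fbln5 stays near 0.

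Among CKD mice, CKD 2 had the highest level of 6 members (Eln, Fbn1, Fbln2, Mfap5, Ltbp2 and Loxl1), and CKD 4 the lowest of 5 (Eln, Fbn1, Fbln5, Mfap5 and Lox). Among Sham mice, Sham 5 was highest for 6 (Fbln1, Fbln2, Mfap5, Mfap4, Ltbp2 and Loxl1) and lowest for Lox.

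Whether paired members changed by unequal amounts was asked of 8 ratios taken within each library. None passed after adjustment over the 8, whose genes were chosen with earlier results of these data known. Mfap5 to Mfap2, the 2 microfibril-associated glycoproteins of the MAGP type, had a ratio of 7.16 in CKD and 4.79 in Sham (log2 difference 0.58, SE 0.13, exact permutation p = 0.00794, adjusted p = 0.0635). That p is the smallest that 5 mice against 5 allow, and over 8 ratios 1 ratio alone at that p cannot pass. Fbln2 to Fbln1 was 1.57 in CKD and 1.06 in Sham (log2 difference 0.57, SE 0.16, exact permutation p = 0.0159, adjusted p = 0.0635). Fbln5 to Eln was 0.329 in CKD and 0.528 in Sham (log2 difference -0.68, SE 0.28, exact permutation p = 0.0397, adjusted p = 0.106). For Mfap5, Ltbp2 and Mfap4 against Fbn1 the log2 differences were 0.38, 0.53 and 0.24, and for Loxl1 against Lox -0.11, with exact permutation p between 0.0873 and 0.603 (adjusted p from 0.175 to 0.659).

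RefSeq promoters (GRCm38.p6, from 250 bases before to 50 after a start) were matched for 5 of the 10 members. Shown here is 1 start in that table for each of Ltbp2 and Fbln2, which rose, and for each of Fbln1 and Fbln5, which did not pass, so that both kinds can be read side by side. The starts of Ltbp2 and Fbln2 lie inside the annotated genes, downstream of their outermost ends. Capitals mark matches, on either strand, to GGGCGG (the GC box), CAGAC (an element bound by SMAD proteins) or CCAAT (the CCAAT box).
Ltbp2: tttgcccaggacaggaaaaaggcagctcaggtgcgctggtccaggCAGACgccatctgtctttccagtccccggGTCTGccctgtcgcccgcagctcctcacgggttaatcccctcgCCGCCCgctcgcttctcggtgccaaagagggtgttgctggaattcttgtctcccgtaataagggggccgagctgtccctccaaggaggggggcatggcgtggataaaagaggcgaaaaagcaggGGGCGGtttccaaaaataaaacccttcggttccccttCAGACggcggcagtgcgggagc
Fbln2: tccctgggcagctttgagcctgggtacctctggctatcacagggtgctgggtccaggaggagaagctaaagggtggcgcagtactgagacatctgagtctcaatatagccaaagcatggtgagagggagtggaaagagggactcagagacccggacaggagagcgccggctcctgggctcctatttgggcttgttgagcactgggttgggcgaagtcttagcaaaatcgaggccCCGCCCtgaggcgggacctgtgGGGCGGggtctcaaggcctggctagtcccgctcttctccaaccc
Fbln1: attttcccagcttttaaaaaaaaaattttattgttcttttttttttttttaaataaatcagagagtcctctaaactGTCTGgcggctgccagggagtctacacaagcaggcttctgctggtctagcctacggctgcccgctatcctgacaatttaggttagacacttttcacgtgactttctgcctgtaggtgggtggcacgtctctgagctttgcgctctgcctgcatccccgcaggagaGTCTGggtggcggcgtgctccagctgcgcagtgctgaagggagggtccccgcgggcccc
Fbln5: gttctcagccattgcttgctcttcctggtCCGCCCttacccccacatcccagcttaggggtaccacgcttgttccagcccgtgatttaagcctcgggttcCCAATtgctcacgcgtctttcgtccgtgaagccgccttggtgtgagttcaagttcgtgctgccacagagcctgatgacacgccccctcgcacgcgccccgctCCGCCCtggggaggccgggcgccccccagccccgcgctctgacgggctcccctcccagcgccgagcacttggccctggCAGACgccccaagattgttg
These lie at chr12:84876442-84876741 (minus strand) for Ltbp2, chr6:91212514-91212813 (plus strand) for Fbln2, chr15:85205699-85205998 (plus strand) for Fbln1 and chr12:101819070-101819369 (minus strand) for Fbln5.

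Ltbp2 had 3 CAGAC matches, Fbln1 2, Fbln5 1 and Fbln2 and Fbn1 0, where 49.6% of 32851 promoters of this length hold at least 1. The GC box occurred in Ltbp2 (2 matches), Fbln2 (2), Fbln5 (2) and Fbn1 (1) but not in Fbln1, against 35.7% of all promoters. CCAAT was found in Fbln5 only (37.4% of all). No match to TATAAA (13.6% of all), the AP-1 motif TGANTCA (7.81%), the TEAD motif CATTCC (14.7%) or the CArG box (1.63%) lay in any of the 5 windows. No motif searched was held by both Ltbp2 and Fbln2 and by neither Fbln1 nor Fbln5. GC content was 61.0% in Ltbp2, 60.3% in Fbln2, 51.7% in Fbln1 and 65.7% in Fbln5, with a median of 52.7% over all promoters.

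Of 14 other structural genes of elastic fibres and microfibrils, 11 were tested, 2 rose and none fell, with a median of 0.28 (log2). Vcan, the proteoglycan versican that binds fibrillin, rose from 3.17 ± 0.233 to 5.35 ± 1.13 FPKM (1.57-fold, adjusted p = 0.0119 by limma). Emilin1, a glycoprotein at the interface of elastin and microfibrils, rose from 6.76 ± 0.755 to 9.71 ± 1.58 FPKM (1.40-fold, adjusted p = 0.0265). The call of Emilin1 ended when CKD 1 and Sham 1 were left out together, or when CKD 2, CKD 5 or a Sham mouse other than Sham 5 was left out (highest adjusted p = 0.0715, with changes between 0.41 and 0.55 when 1 library was removed).

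The most abundant structural genes did not pass. Ltbp4, which elastic fibre assembly needs together with fibulins, averaged 95.7 ± 8.96 FPKM in CKD mice and 78.7 ± 9.86 in Sham mice (log2 0.28, adjusted p = 0.0963 by limma). Efemp1, fibulin 3, was at 15.8 ± 3.70 and 18.5 ± 3.07 (log2 -0.24). Ltbp1, a carrier of latent TGF-beta, was at 12.3 ± 0.634 and 13.1 ± 1.04 (log2 -0.09). Ltbp3, a relative of it, was at 11.5 ± 0.517 and 10.3 ± 1.22 (log2 0.16). Mfap2, which encodes MAGP-1, averaged 2.49 ± 0.473 FPKM in CKD mice and 1.63 ± 0.280 in Sham mice (log2 0.49, adjusted p = 0.0555). Fbn2, the fibrillin of development, was under the filter at 0.150 ± 0.0628 and 0.172 ± 0.110 FPKM.

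Genes for assembly, processing and cross-linking had positive changes in all 15 tested of 20 listed, of which Atp7a and Adamtsl3, near 0, turned negative without CKD 5. Of the 15, 6 rose (median log2 0.23). Adamtsl2, an ADAMTS-like protein that binds fibrillin, rose from 3.18 ± 0.768 to 7.34 ± 1.48 FPKM (2.13-fold, adjusted p = 0.00281 by limma). Loxl2, a lysyl oxidase-like enzyme that acts on collagen, rose from 5.09 ± 0.600 to 9.07 ± 1.24 FPKM (1.71-fold, adjusted p = 0.00164). Tgm2, tissue transglutaminase, rose from 112 ± 12.0 to 163 ± 16.9 FPKM (1.46-fold, adjusted p = 0.00406). Loxl3 rose 1.33-fold, as did the procollagen C-proteinase enhancers Pcolce (1.35-fold) and Pcolce2 (1.32-fold). These 3 were lost without both CKD 1 and Sham 1, which left 3 of the 15 called, and each also without CKD 2, Sham 3 or Sham 4, their changes staying between 0.36 and 0.49 with 1 library removed. Among those that did not pass, Adamtsl5 averaged 56.6 ± 6.33 FPKM in CKD mice and 46.0 ± 6.76 in Sham mice, and Furin, a protease that processes fibrillin, at 28.5 ± 1.55 and 26.5 ± 2.52. Adamtsl4 was at 24.8 ± 1.87 and 21.8 ± 4.55, and Bmp1, a protease that activates lysyl oxidase, at 16.5 ± 1.16 and 14.3 ± 1.07 FPKM.

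**Figure D4:**
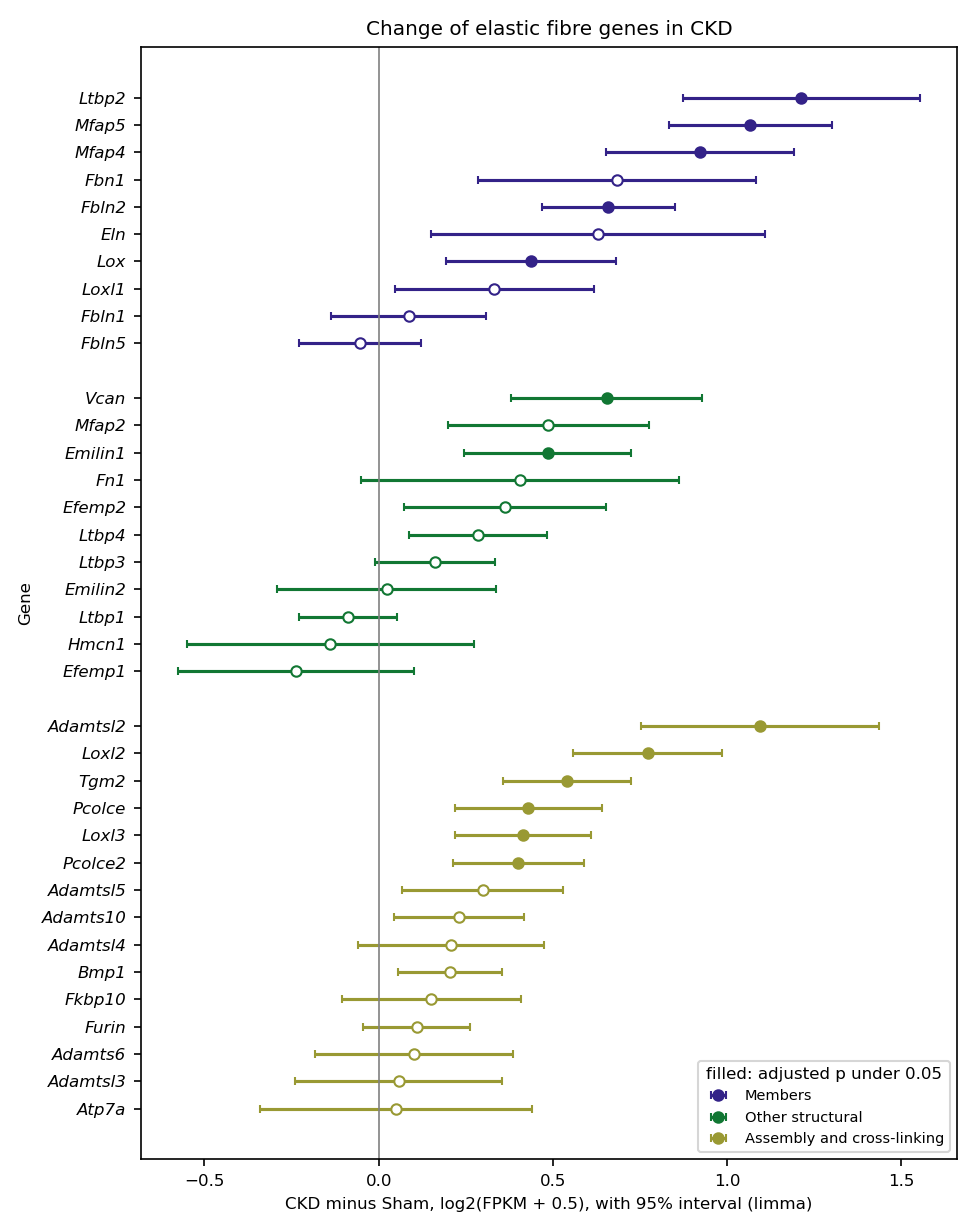
CKD minus Sham on the log2(FPKM + 0.5) scale (horizontal axis) with the 95% interval from limma, for the 10 members, 11 other structural genes and 15 assembly genes; filled points have an adjusted p under 0.05. The intervals of Eln and Fbn1 are wider than that of Fbln2, although the 3 points lie close together between 0.63 and 0.68.

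Of 13 genes for elastin-degrading proteases and the elastin receptor complex, 7 were tested, 4 rose and none fell (median log2 0.31). Ctsk and Ctss, cathepsins that cleave elastin, rose from 4.98 ± 0.666 to 8.59 ± 0.930 FPKM (1.66-fold, adjusted p = 0.00189 by limma) and from 9.02 ± 0.691 to 15.4 ± 4.32 FPKM (1.63-fold, adjusted p = 0.0212), the call of Ctss being lost without any 1 of CKD 5, Sham 2 or Sham 3. Mmp2, gelatinase A, rose from 25.1 ± 2.03 to 32.5 ± 1.37 FPKM (1.29-fold, adjusted p = 0.00539). Ctsa, the cathepsin A of the receptor complex, rose 1.13-fold (adjusted p = 0.0383), a call lost in 11 of 21 alternatives. Ctsl averaged 123 ± 6.01 FPKM in CKD mice and 112 ± 9.37 in Sham mice, Mmp14 at 8.00 ± 2.84 and 6.20 ± 1.78, and Neu1, the sialidase of the receptor, at 7.74 ± 0.546 and 7.92 ± 0.371. Mmp7 and Elane were listed at 0 in all 10 libraries.

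Of 8 integrin genes for elastic fibre proteins 6 were tested, none rose and 1 fell (median log2 0.07). Itgb6, which encodes the integrin beta 6 that activates latent TGF-beta, fell from 5.85 ± 1.16 to 3.20 ± 0.875 FPKM (log2 -0.79, adjusted p = 0.0164 by limma), and did not pass without both CKD 1 and Sham 1, at a similar change (log2 -0.75, adjusted p = 0.0571). Itgb1 (148 ± 4.22 FPKM in CKD, 139 ± 6.01 in Sham), Itgb5 (39.7 ± 2.27 and 39.1 ± 3.38), Itga5 (25.6 ± 3.79 and 21.4 ± 3.75) and Itgav (4.23 ± 0.409 and 4.03 ± 0.224) did not pass. Of 10 latent growth factor genes 4 were tested, and limma called 0 of them in either direction (median log2 0.19). Tgfb2 and Tgfb3 had an unadjusted p of 0.0226 and 0.0402 by limma, where 2275 of the 11651 genes tested had one under 0.05. Tgfb1 averaged 10.9 ± 1.57 FPKM in CKD mice and 9.67 ± 0.947 in Sham mice, Tgfb3 at 6.78 ± 0.565 and 5.81 ± 0.768, Bmp4 at 5.18 ± 1.57 and 4.82 ± 1.43, and Tgfb2 at 3.83 ± 0.438 and 2.99 ± 0.623.

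Fibroblasts make much of this matrix. Of 12 fibroblast markers 3 rose (Pi16, Lum and Cd248), 9 did not pass and none fell, with a median of 0.13 (log2). The list summed to 1409 to 1691 FPKM in CKD and 1313 to 1381 in Sham, and Pdgfra and Tcf21, which define these cells, changed by 0.05 and -0.13 without passing (adjusted p = 0.759 and 0.556 by limma). Of 6 markers of activated fibroblasts 5 were tested and 3 rose (median log2 1.02), Postn 2.33-fold, Cilp 2.19-fold and Meox1 2.02-fold. Acta2 and Comp, also tested, had negative changes that did not pass. Acta2 stood at 64.4 ± 7.05 FPKM in CKD mice and 77.2 ± 10.3 in Sham (log2 -0.26, adjusted p = 0.155 by limma). Comp was at 1.16 ± 0.263 and 1.40 ± 0.364 FPKM (log2 -0.19, adjusted p = 0.565). The activated fibroblast list summed to 88.4 to 128 FPKM in CKD and 83.9 to 109 in Sham, set mostly by Acta2, which smooth muscle also expresses. The part of a change in cell numbers in the rises was not tested.

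Each member was therefore also taken relative to the mean log2(FPKM + 0.5) of the 12 fibroblast markers in the same library, a mean that was higher by 0.23 in CKD (SE 0.04). Of the 12 markers 10 had a positive change, with a median of 0.13 over the list. The largest changes were those of Pi16 (0.74), Ly6a (0.74) and Cd248 (0.55). Relative to it, Ltbp2 was higher by 0.98 (log2, SE 0.18), Mfap5 by 0.84 (SE 0.11) and Mfap4 by 0.69 (SE 0.15), each with an exact permutation p = 0.00794 (adjusted over the 10 members p = 0.0265). Fbln2 was higher by 0.43 (SE 0.12) and Fbln5 lower (log2 -0.28, SE 0.07), each with an exact permutation p = 0.0159 (adjusted p = 0.0317). Fbln5 itself changed by -0.05, so most of its difference is the higher marker mean. The members were chosen with earlier results of these data known, and the adjustment covers these 10 alone. The p-values relative to the markers are therefore a description and not independent support. Fbn1 (0.45, SE 0.21), Eln (0.40, SE 0.25), Lox (0.21, SE 0.10), Loxl1 (0.10, SE 0.14) and Fbln1 (-0.14, SE 0.09) did not pass, with adjusted exact permutation p from 0.0794 to 0.524. Without both CKD 1 and Sham 1 the 5 calls were lost (adjusted exact permutation p = 0.0571 to 0.0952, with 0.0286 the smallest unadjusted p that 4 mice against 4 allow), at differences of 0.93 for Ltbp2, 0.83 for Mfap5, 0.74 for Mfap4, 0.41 for Fbln2 and -0.33 for Fbln5. Leaving out CKD 2, CKD 3, Sham 1, Sham 3 or Sham 5 singly also ended the calls of Ltbp2, Mfap5 and Mfap4. All 3 then stood at an adjusted exact permutation p = 0.0529. With 1 mouse fewer the smallest p attainable is larger, so these lost calls do not by themselves show weaker differences. For Fbln2 and for Fbln5, 7 single removals ended the call. With 1 library left out the differences ran from 0.89 to 1.14 for Ltbp2, 0.76 to 0.89 for Mfap5 and 0.60 to 0.78 for Mfap4. They ran from 0.36 to 0.50 for Fbln2 and from -0.32 to -0.24 for Fbln5.

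**Figure D5:**
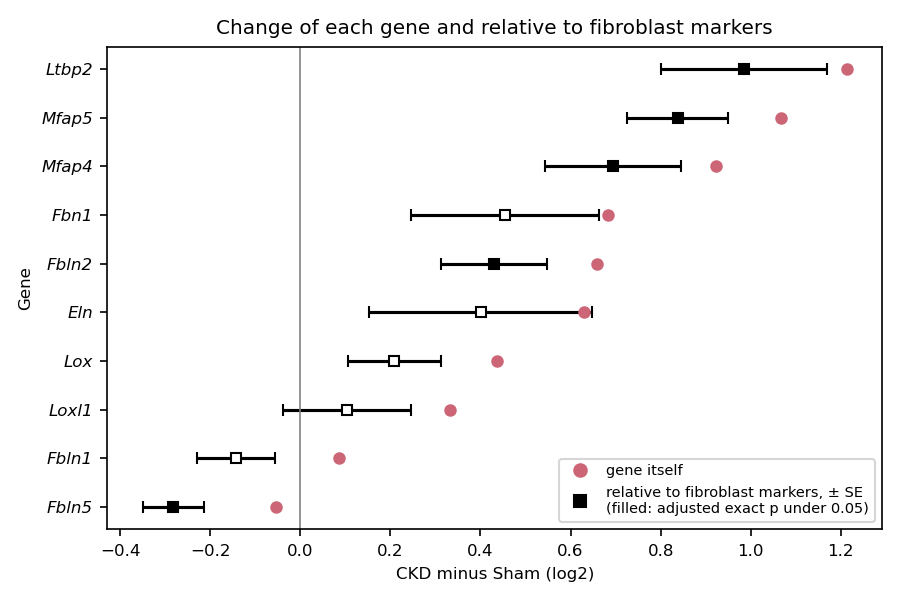
CKD minus Sham (log2, horizontal axis) for each member itself (red circles) and relative to the mean of 12 fibroblast markers in the same library (black squares with SE; filled where the adjusted exact permutation p is under 0.05). Ltbp2, Mfap5, Mfap4 and Fbln2 remain to the right of 0 after this step (0.98, 0.84, 0.69 and 0.43), and Fbln5 lies to the left (-0.28).

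Smooth muscle cells of vessels also make elastin. Of their 9 markers 7 were tested and limma called 0 (median log2 0.21), with sums of 1356 to 1582 FPKM in CKD and 1122 to 1447 in Sham, set mostly by Des, which heart muscle also expresses. Myh11, the smooth muscle myosin, had 7.51 ± 1.38 FPKM in CKD mice and 6.59 ± 2.16 in Sham mice. Of 7 pericyte markers (sums of 251 to 285 FPKM in CKD and 264 to 303 in Sham) and 8 endothelial markers (321 to 388 and 317 to 360) limma called 0. Macrophage markers had 4 of 8 higher and summed to 330 to 472 FPKM in CKD and 235 to 288 in Sham. Of 5 cartilage and valve markers 2 were tested and both fell, Lect1 and Wif1 (sums of 6.75 to 8.88 FPKM in CKD and 10.8 to 13.5 in Sham), with Col2a1 and Acan at or near 0. Epicardial markers summed to 3.99 to 12.9 and 2.98 to 11.2 FPKM with 0 called, and their part in the rises was not tested.

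Eln, Fbn1, Mfap4, Ltbp2 and Lox share exonic sequence with a gene on the other strand in the GENCODE annotation of GRCm38. No source used here states whether the levels were computed by strand, so reads of such pairs cannot be told apart. Of the 2 partners listed in the table, Mapk7, the partner of Mfap4, averaged 4.27 ± 0.360 FPKM in CKD mice and 3.73 ± 0.763 in Sham mice (log2 0.19, adjusted p = 0.402 by limma). D030025P21Rik, the partner of Ltbp2, was at 0 in 8 libraries and at most 0.0444 FPKM.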

How the data were processed

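RNA from 10 left ventricle samples was sequenced in single reads of TruSeq mRNA libraries, per the labels' protocols. The deposited values are FPKM, 1 column per sample. The submitters' processing notes name STAR 2.4.0f1, Cufflinks 2.1.1 and Cuffdiff 2.1.1 and the builds mm10 and hg19, with no roles. FPKM keeps no read number, so no count model was used.

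Genes with a mean of at least 1 FPKM (11651 of 23303 entries) were analysed as log2(FPKM + 0.5) with limma 3.58.1 in R 4.3.3 (eBayes with a variance trend, two-sided, Benjamini-Hochberg over all tested genes, threshold 0.05). Ratios were compared by two-sided exact permutation of mice (scipy 1.17.1). The fit was tested on simulated data with 200 genes changed. Changes of 1.25-fold, 1.5-fold, 2-fold and 3-fold were recovered in 30%, 72%, 94% and 100% of cases, with 9 false among 157 calls. The members, the 5 pathway lists and the 12 cell type lists were chosen with earlier results of these data known. Named are all members, list genes that passed (at most 8 a list), up to 4 that did not, by mean FPKM, and the 3 genes most like the members' mean profile. Mfap2, Fbn2, Fn1, Mmp7, Elane, Atp7a, Adamtsl3, the overlapping genes and the cell type markers were named beyond this rule, some after their values were seen. As alternatives, the pseudocount, the filter, the scaling and the variance model were changed in turn and libraries were left out. Each sample was taken as 1 mouse, which no label states outright. The p-values set the difference between the groups against the spread among these samples, which may be in part technical. Glb1 occurs only in a joined entry and was left out, and Adgre1 was matched by its older symbol in RefSeq. Positions are RefSeq GRCm38, which mm10 denotes.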

Additional observations from a re-analysis of the deposited data

Results flagged for a closer look

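The highest or lowest of 5 mice lay apart from the other 4 of its group, by Dixon's ratio, in 4 of the 106 groups looked at (53 genes in 2 groups), where chance gives about 1 in 20. No member was among them. Fn1, fibronectin, was at 16.5 FPKM in Sham 5 and at 6.91 to 8.05 in the other Sham mice. Loxl3 was at 1.73 FPKM in Sham 5 and 1.26 to 1.39 in the others, and Mmp2 at 28.6 FPKM in Sham 5 and 23.6 to 25.0 in the others. Ctsa was at 50.2 FPKM in CKD 5 and at 46.6 to 47.5 in the other CKD mice. Fn1 was not called between the groups (log2 0.41, adjusted p = 0.317 by limma). It passed only without Sham 5 (log2 0.63, adjusted p = 0.0111), whose removal as the high Sham mouse could only raise the change, and was at 0.32 to 0.46 without any other library.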

How the results depend on the processing

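The calls of Mfap5, Mfap4 and Fbln2 held under all 21 alternatives and that of Ltbp2 under the 20 in which it was tested. Lox was lost under 12 of 20, among them no filter on the mean (adjusted p = 0.0719 by limma) and scaling to the same total (0.0509). A mean of at least 5 FPKM, which leaves Ltbp2 and Lox untested, gave 3 members, 1 other structural gene and 0 receptor genes called. Library weights gave 400 genes lower and 511 higher over all genes, against 247 and 369.

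Without both CKD 1 and Sham 1, 1 structural and 3 assembly genes were called higher and 0 receptor genes lower. Relative to fibroblast markers, Fbln2 was then at 0.41, Fbln5 at -0.33, Mfap5 at 0.83, Mfap4 at 0.74 and Ltbp2 at 0.93, with no call at 4 mice against 4.

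With 1 library left out, 4 to 6 members, 1 to 4 structural, 3 to 6 assembly and 2 to 4 degradation genes were called higher, and over all genes 201 to 384 higher and 131 to 290 lower. The lowest counts of all genes came without Sham 3 (higher) and CKD 2 (lower). Relative to fibroblast markers the ranges were 0.32 to 0.55 for Fbn1, -0.21 to -0.092 for Fbln1, 0.36 to 0.50 for Fbln2, -0.32 to -0.24 for Fbln5, 0.76 to 0.89 for Mfap5, 0.60 to 0.78 for Mfap4, 0.89 to 1.14 for Ltbp2 and 0.13 to 0.26 for Lox. Fbn1 and Lox passed without CKD 4, and Fbln1 without CKD 1.

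Values that changed sign were all near 0 and not called. They were Emilin2 (-0.0891 without both libraries, -0.11 to 0.13 with 1 left out), Atp7a (-0.077 with library weights, -0.013 without both, -0.065 to 0.18), Itgb5 (-0.011 without both, -0.011 to 0.062), Adamtsl3 (-0.011 to 0.16), Bmp4 (-0.034 to 0.22), Eln to Fbn1 (-0.15 to 0.014) and Loxl1 to Lox (-0.23 to 0.011). The causes were not tested. Of 1099 values of 53 single genes under alternatives, 1027 kept direction and side of the threshold. No paired analysis was possible because the labels share no replicate numbers between the groups. Without read numbers, the precision of low values such as those of Ltbp2 in Sham is unknown.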

Other observations

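By the naming rule, Stat3, Sdc3 and Fam195b were the genes outside all lists whose log2 values over the 10 libraries were most like the mean standardised profile of the 10 members. Their Pearson r was 0.991, 0.983 and 0.973, as a description that contains the difference between the groups. Stat3, a transcription factor activated by cytokines, averaged 59.8 ± 4.91 FPKM in CKD mice and 46.8 ± 2.56 in Sham mice (1.27-fold, adjusted p = 0.00924 by limma). Sdc3, a heparan sulfate proteoglycan of the cell surface, was at 20.4 ± 1.98 and 15.7 ± 1.04 FPKM (1.29-fold, adjusted p = 0.0159), and Fam195b at 40.8 ± 2.39 and 32.9 ± 0.930 FPKM (1.23-fold, adjusted p = 0.00618).

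Mmp14, a membrane metalloproteinase, took nearly the order of mice seen for Eln and Fbn1, which was noticed after the values were seen. It was at 8.69, 11.6, 5.82, 4.49 and 9.46 FPKM in CKD 1 to CKD 5 and at 4.62, 4.39, 8.39, 7.64 and 5.99 in Sham 1 to Sham 5. As for Fbn1, CKD 2 was the highest CKD mouse and CKD 4 the lowest, Sham 3 and Sham 4 the highest Sham mice and Sham 2 the lowest. Its change between the groups did not pass (log2 0.31, SE 0.24, adjusted p = 0.530 by limma).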
